A study of Mus musculus with 9 samples.

Results

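The regions described here are 630 unmethylated CpG islands that lie between protein-coding genes, and 137 of them overlap a noncoding gene. They were chosen from 22530 autosomal islands, which were found from the positions of CpGs alone as the stretches of maximal score when each CpG adds 17 and every other base takes 1 away. An island had to be longer than 200 bp and hold at least 6 CpGs per 100 bp. In 16376 of them each library had 3 or more CpGs and 30 or more CpG reads, and of these 13723 had a mean level under 20%, where a CpG read is 1 read over 1 CpG and the level is the share of CpG reads that were methylated. The 630 islands lie outside every protein-coding gene and more than 1000 bp from the end of any gene. Of the other unmethylated islands, 11076 touch or come within 1000 bp of a gene end, and 2017 are inside protein-coding genes. Another 778 intergenic islands stood at 20% or more, and 4273 intergenic islands had too few reads. The island level itself chose the members, so it is given below as a description, without a test.

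CpG islands are stretches rich in CpGs that in most tissues escape the DNA methylation that covers the rest of the genome. Many hold the start of a gene, and those far from annotated genes include starts of noncoding RNAs, distal regulatory elements and the broad unmethylated domains around regulators of development. Methylation rises over a short distance outside an island, in its border and its shore. KMT2D is a histone methyltransferase that places H3K4 monomethylation, chiefly at enhancers, and unmethylated H3K4 is what the cofactor of the de novo DNA methyltransferases binds.

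The study measured DNA methylation by whole-genome bisulfite sequencing, in which unmethylated cytosines are converted and methylated ones are not. The cells were bulk B cells of mouse spleen, enriched by magnetic depletion of other cells, from 3 genotypes of mice. WT mice carried normal KMT2D, HET mice the Ile5482Asn change on 1 copy and HOM mice on both, and no treatment is named. In the table, HET and HOM are also marked ENU, a chemical mutagen, and WT is not. The sources used here give neither strain, age nor sex. The labels list 2 B cell samples per genotype, while the table used here gives each genotype a single column pair of counts. Each pair is treated as 1 library. There is therefore no check against replicates, and every test sets library against library rather than genotype against genotype. The libraries held 200824258 (WT), 282430649 (HET) and 215454437 (HOM) CpG reads, a mean of 9.18, 12.9 and 9.85 per CpG. The open sea, more than 4000 bp from any island, stood at 81.6%, 80.9% and 78.1%, so the HOM library was the lowest there. At the starts of B cell genes (within 500 bp, 4 of 8 measured) the median level was 24.3%, 21.6% and 23.2%, from Pax5, a B cell transcription factor, at 8.70%, 3.85% and 4.31% to Fcer2a at 72.6%, 66.9% and 67.9%. The starts of T cell genes (6 of 8 measured) had medians of 54.6%, 72.8% and 51.6%, those of NK cell genes (3 of 4) 64.1%, 66.1% and 66.8%, those of myeloid genes (4 of 6) 30.5%, 41.7% and 40.9%, and Klf1, the measured gene of 4 erythroid ones, stood at 81.7%, 71.0% and 69.3%. No marker start stood at 0, and the part of other cells in the results below was not tested.

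Only 3 RefSeq starts of 300 bases overlapped member islands. They are alternative starts inside noncoding genes, and each island lies over 1000 bp from both ends of the gene it overlaps. They are shown because they let the CpGs of a member be seen letter by letter. They belong to the noncoding genes 5930403N24Rik (chr10:37140820-37141119, 2017 bp from Marcks, measured from the island), Gm33195 (chr13:43864305-43864604, in the island whose nearest protein-coding gene is Cd83, an activation marker of B cells and dendritic cells) and Gm33582 (chr14:60176701-60177000, nearest Nupl1). All lie on the plus strand of GRCm38.p6, the sequences are RefSeq's, and CpGs are in capitals.
5930403N24Rik: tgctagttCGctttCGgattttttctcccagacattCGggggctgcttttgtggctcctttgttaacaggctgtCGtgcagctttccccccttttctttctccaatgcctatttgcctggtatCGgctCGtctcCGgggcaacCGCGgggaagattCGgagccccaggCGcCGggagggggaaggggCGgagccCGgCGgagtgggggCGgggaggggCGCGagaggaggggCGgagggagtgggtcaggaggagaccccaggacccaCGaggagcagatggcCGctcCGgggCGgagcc
Gm33195: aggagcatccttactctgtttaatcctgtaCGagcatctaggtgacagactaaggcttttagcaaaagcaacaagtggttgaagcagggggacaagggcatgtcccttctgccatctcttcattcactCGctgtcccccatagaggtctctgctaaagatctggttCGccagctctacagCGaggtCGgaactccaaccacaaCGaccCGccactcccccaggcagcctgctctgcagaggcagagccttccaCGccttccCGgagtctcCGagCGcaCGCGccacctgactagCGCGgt
Gm33582: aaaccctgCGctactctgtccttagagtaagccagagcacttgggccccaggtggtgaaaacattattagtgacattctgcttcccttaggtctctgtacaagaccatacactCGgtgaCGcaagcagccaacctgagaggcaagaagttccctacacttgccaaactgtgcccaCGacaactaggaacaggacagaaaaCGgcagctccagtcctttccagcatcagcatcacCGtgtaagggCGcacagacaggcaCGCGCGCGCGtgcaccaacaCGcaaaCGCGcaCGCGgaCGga
The start of 5930403N24Rik held 23 CpGs, and none of its 135 (WT), 179 (HET) and 135 (HOM) CpG reads was methylated, which allows a level of up to 2.22%, 1.68% and 2.22%. That of Gm33195 held 15 CpGs at 0.881%, 0.794% and 1.03% over 227, 252 and 292 CpG reads. That of Gm33582 held 18 CpGs at 0.840%, 2.31% and 8.62%, of which the last value is 5 methylated reads of 58. In each case the island begins inside the printed window and runs on past its 3′ end.

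Some members lie near microRNA genes, and mature sequences from the nearest hairpins of the 4 longest members and of 3 shorter ones are printed with the seed, bases 2 to 8, in capitals. A microRNA hairpin lay within 10000 bp of 16 members (2.54%), against 3.68% of gene-end islands and 2.58% of islands inside genes; these shares were not tested. RefSeq held a mature sequence for 14 of the 16, from 11 hairpin genes. The longest member of all, chr14:115040330-115042403, is 2074 bp with 319 CpGs and ends 1268 bp before Mir17, the first hairpin of a cluster that B cell development needs. Its levels were 0.292%, 0.226% and 0.345% (WT, HET, HOM), from 1371, 1772 and 1449 CpG reads. The next 3 in length have Mirlet7c-2 at 34503 bp (chr15:85670333-85672100), Mir15a at 15776 bp (chr14:61647886-61649387, inside the noncoding gene Dleu2) and Mirlet7a-1 at 7204 bp (chr13:48545476-48546919) as their nearest hairpins. The shorter members at chr13:83730780-83731521 and chr13:83745072-83745334, on both sides of Mir9-2, and that at chr6:52221353-52221915, 8166 bp from Mir196b in the Hoxa cluster, were picked for show after their values were seen.
mmu-miR-17-5p: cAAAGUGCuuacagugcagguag
mmu-let-7c-5p: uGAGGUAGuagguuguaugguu
mmu-let-7a-5p: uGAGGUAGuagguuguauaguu
mmu-miR-15a-5p: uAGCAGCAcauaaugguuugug
mmu-miR-9-5p: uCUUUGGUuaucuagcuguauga
mmu-miR-196b-5p: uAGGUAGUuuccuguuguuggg
The let-7c and let-7a sequences share the seed GAGGUAG, and the other seeds differ. Distance alone links these islands to the hairpins, and no transcript was measured. The 16 members near a hairpin had a mean border level of 15.1%, 14.8% and 15.7% over 29 borders and a mean shore level of 45.2%, 44.5% and 44.4% over 30 shores, and the differences of HOM from WT had counting intervals that included 0 (-1.24 to 2.35 points for borders, -2.43 to 0.888 for shores).

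Intergenic islands had a lower median length and a higher median level than islands at genes. Their median length was 357 bp (from 201 to 2074), against 634 bp at gene ends and 526 bp inside genes, and their median density was 9.29 CpGs per 100 bp against 10.2 and 9.91. Median levels were 1.75%, 1.77% and 1.52% (WT, HET, HOM), against 0.421%, 0.424% and 0.403% at gene ends and 1.08%, 1.08% and 0.936% inside genes. Of the members, 161 were under 1% and 446 under 5% in every library, and 26 had a mean of 10% or more. They lay on every autosome, from 59 on chromosome 2, 57 on chromosome 4 and 56 on chromosome 11 down to 14 on chromosome 16. A gene end lay within 5000 bp of 326 members, 224 were 5000 to 20000 bp away and 80 farther, and the nearest end was that of a protein-coding gene for 307. A noncoding gene overlapped 137 members, in 130 cases a long noncoding RNA. Another island lay within 2000 bp of 125.

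The member farthest from a gene end lay 109045 bp from any gene end, with Pex2, a peroxisome gene, as the nearest coding gene, and stood at 14.9%, 14.1% and 7.56%. Next came an island 98841 bp from Irx5, a homeobox gene (chr8:92460297-92461079, 103 CpGs), at 1.99%, 2.91% and 2.37%. The densest member was 3573 bp from Gclc, a gene of glutathione synthesis (chr9:77750614-77750962), with 18.1 CpGs per 100 bp at 0.195%, 0.434% and 0.802%. Just under the 20% limit stood the islands near Dusp6 (mean 18.5%), Zfp266 (17.6%) and Lctl (17.2%), and just over it those near Gm8032 (20.5%), Gata2 (21.0%) and Gpatch2l (21.3%). Reads per CpG exceeded 5 times the library mean in 4 members, near Pex2, Csf2ra, Axin2 and Cr2. The island near Axin2 had 14691, 4039 and 8086 CpG reads, at levels of 16.3%, 17.5% and 8.74%. Pooled over reads, all members stood at 4.02%, 3.31% and 2.95%, and without these 4 at 2.77%, 2.83% and 2.65%, so most of the gap between WT and HOM in the pooled level came with them.

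Developmental regulators were the nearest coding genes of a large share of the members. Of the 630, 137 (21.7%) had a homeobox or other developmental transcription factor as the nearest protein-coding gene, against 3.15% of gene-end islands and 9.22% of islands inside genes, and they belonged to 93 of the 245 listed genes. The longest of these lay 4742 bp from Hoxa13 (chr6:52252740-52254111, 1372 bp) at 4.71%, 4.37% and 4.37%, 70250 bp from Nr2f2, a nuclear receptor gene, inside the noncoding gene Gm29683 (chr7:70280418-70281696) at 5.56%, 5.14% and 6.74%, 3643 bp from Six2 (chr17:85691897-85693104) at 6.76%, 7.09% and 7.08%, and 10918 bp from Sox2 (chr3:34663379-34664473), inside Sox2ot, at 9.40%, 7.42% and 7.75%. Secreted morphogens and their antagonists were nearest to 7 members (1.11%, against 0.686% and 1.54%), among them islands near Bmp7, Wnt7b, Nog and Sfrp2 at means of 1.71% to 4.58%.

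Genes of B cells were nearest to 10 members (1.59%, against 0.289% and 0.892%). The island 2212 bp from Pax5 (chr4:44712906-44713335) stood at 0.590%, 0.587% and 1.18% over 339, 341 and 255 CpG reads. Nearest does not mean close, as members lay 61338 bp from Cd83 and 64710 bp from Cr2. Of the 3 members nearest Mef2c, a transcription factor of B cell activation, the longest was at 0.949%, 0.153% and 0.431%. It lay 63701 bp from Mef2c and is an island beside Mir9-2 described above. An island 2749 bp from Ccnd2, a cyclin gene (chr6:127154937-127155221), picked after its values were seen, had 0%, 0.382% and 0.662%, where 0 of 182 CpG reads in WT allows up to 1.65%. A further 2 islands lay near Id3, an inhibitor of E proteins, the longer at 2.46%, 2.58% and 2.15%. Genes of T, NK, myeloid and erythroid cells were nearest to 6 members (0.952%, against 0.163% and 0.397%). The longer of the islands near Klrb1c, an NK receptor gene, had 0.310%, 0% and 0.175%, where 0 of 691 CpG reads allows up to 0.434%. That near Eomes, a T-box factor of NK and T cells, had 0.300%, 1.25% and 0.873%, and that near Bcl11b, a T cell factor, 1.61%, 1.47% and 1.29%. No member was nearest to a listed gene of the KMT2D complex or another listed H3K4 methyltransferase (16 genes found). Kmt2e was not on that list and was nearest to a member (chr5:23418356-23418582), picked after its values were seen. That member had 0% in each library, where 0 of 405, 433 and 251 CpG reads allows up to 0.741%, 0.693% and 1.20%. Of 30 imprinted genes found, Cdkn1c and Trappc9 had members, and the longer of the islands near Cdkn1c stood at 7.97%, 8.94% and 7.84%.

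Beyond the border, methylation of the members as a whole stayed below that around genes, as the profile from the island edge shows. In the first 100 bp the level was 6.32%, 6.22% and 5.97% (WT, HET, HOM). At 900 to 1000 bp it was 44.7%, 44.8% and 43.8%, against 60.9%, 60.7% and 57.4% around gene-end islands. The profile crossed 50% at 1277, 1282 and 1335 bp, against 730, 733 and 792 bp at gene ends and 838, 842 and 906 bp inside genes. The late crossing was that of the members near developmental transcription factors. Their profile reached 50% at 3477, 3486 and 3485 bp, with a level of 25.7%, 25.9% and 25.6% at 1900 to 2000 bp, while the other members crossed at 780, 773 and 798 bp, close to the islands of genes.

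**Figure D1:**
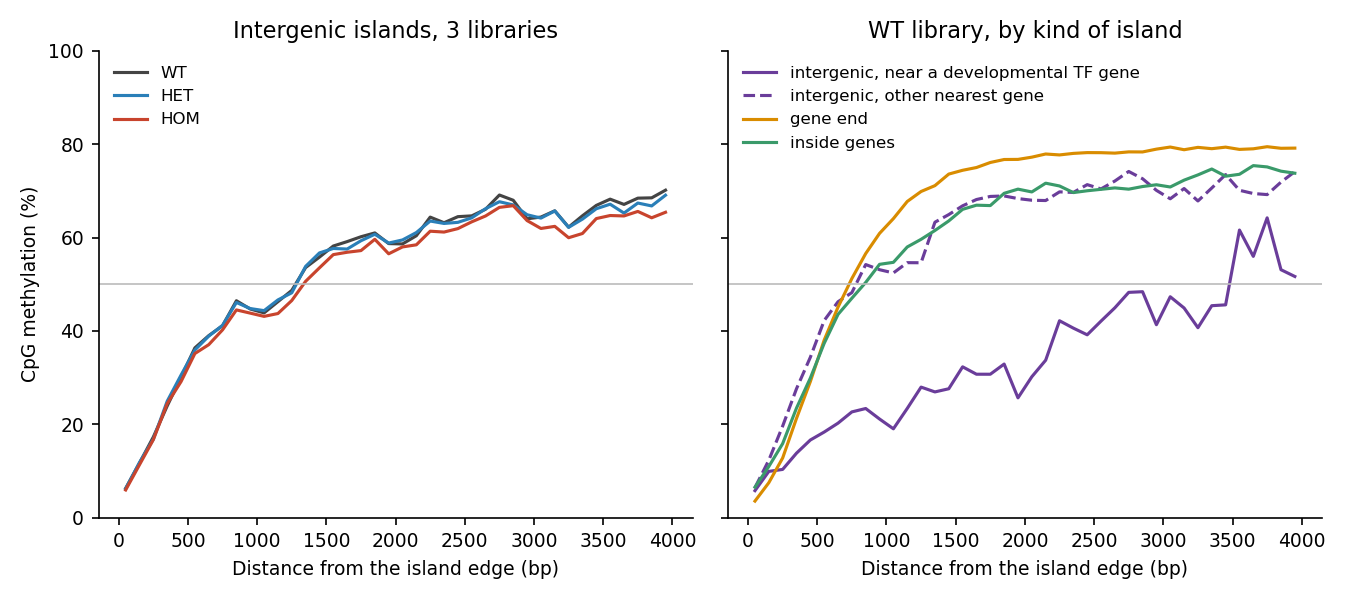
CpG methylation (%) pooled over CpG reads per 100-bp bin, by distance (bp) outward of the island edge, for the members in each library (left) and for kinds of island in the WT library (right). Around members near developmental transcription factor (TF) genes the WT line stays under 50% until 3477 bp, while that of the other members crosses 50% at 780 bp.

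The borders (0 to 500 bp outside an edge, each side a region) could be measured for 1161 sides of 619 members, with a median of 11 CpGs and 119, 168 and 134 CpG reads. Their mean level was 20.7% in WT (95% counting interval 20.5 to 20.9), 20.9% in HET (20.7 to 21.1) and 20.1% in HOM (19.9 to 20.3), and the SD over regions was 20.7 points in WT. The intervals cover counting error alone, as do all below. They take each CpG read as independent, although the CpGs of a read are not, so they are too narrow. In WT this was 3.80 points above gene-end borders (3.58 to 4.02) and 1.05 points above borders inside genes (0.809 to 1.29). The shores (500 to 2000 bp, 1122 sides of 617 members) went the other way. They had means of 56.5%, 56.3% and 54.4%, which in WT differed by -11.3 points from the shores of gene ends (-11.5 to -11.1) and by -5.19 points from those of islands inside genes (-5.40 to -4.97). Shores under 20% in WT made up 20.5% of the member shores and 7.28% of the gene-end shores, and shores of 80% or more 31.7% and 42.9%.

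**Figure D2:**
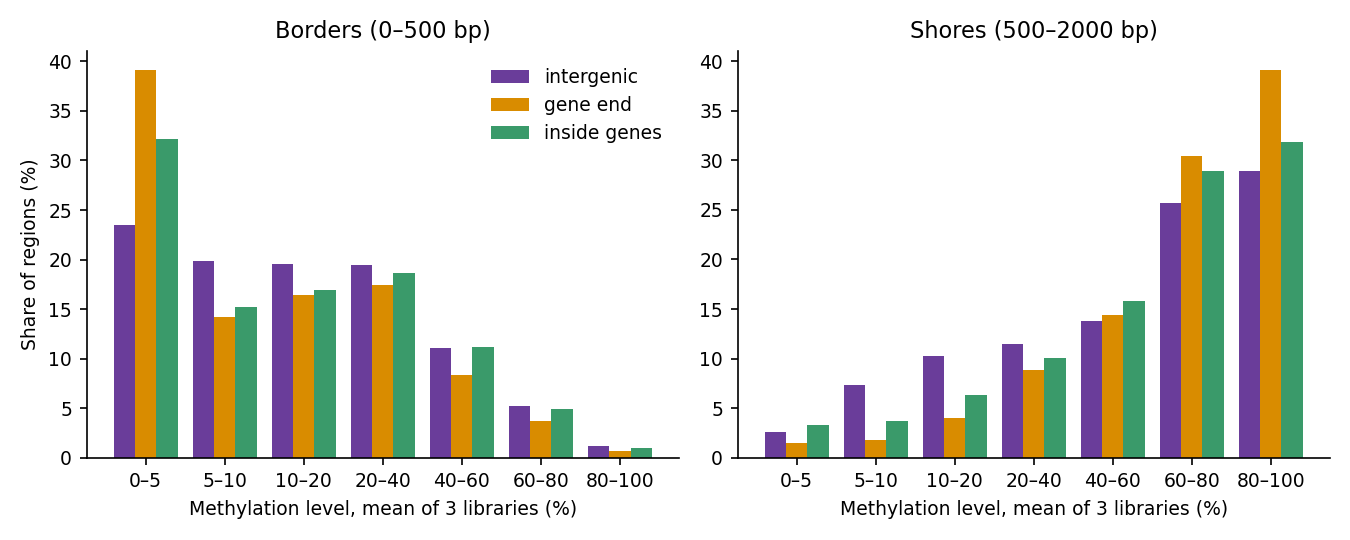
Share of borders (left) and shores (right) in each class of level, the mean of the 3 libraries (%), for the members, gene-end islands and islands inside genes. The lowest class holds 23.5% of member borders against 39.1% at gene ends, and the shore classes from 5 to 20% hold more of the members than of the other islands.

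Members were often lopsided, though the same was not counted for islands at gene ends or inside genes. Counting error adds to such differences. Of 542 with both borders measured, 241 had both under 20%, 99 had both at 20% or more, and 202 had them on different sides of 20%. The sides differed by a median of 11.3 points, and in 61 members by 40 points or more. The island in Dleu2 is an example, with a border of at most 0.697% in every library at its low end and of 62.4%, 36.3% and 38.7% at its high end.

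Members near developmental transcription factors differed from the other members by far more than the libraries differed. Borders near developmental transcription factors averaged 13.1%, 12.9% and 12.4% over 261 sides and the other 900 averaged 22.9%, 23.3% and 22.4%. Their WT counting intervals (12.7 to 13.5 and 22.6 to 23.1) did not overlap, but these do not cover the spread from island to island. The shores of the same groups averaged 31.4%, 30.8% and 29.7% over 242 sides and 63.4%, 63.3% and 61.2% over 880, and 121 of the 242 (50%) were under 20% in WT, against 12.4% of the rest. Members that overlap a long noncoding RNA gene had shores at 49.4%, 49.1% and 47.5%, below those without a noncoding gene at 58.2%, 58.1% and 56.0%. Borders rose with distance from the nearest gene end, from 18.5%, 19.1% and 18.2% (up to 5000 bp) over 21.6%, 21.9% and 21.2% (up to 20000 bp) to 27.1%, 26.0% and 25.5% (farther). Borders had WT means of 20.3%, 20.4% and 21.7% for members up to 300 bp, over 300 and up to 500 bp, and longer, while shores had 59.0%, 56.4% and 53.2% in the same order.

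**Figure D3:**
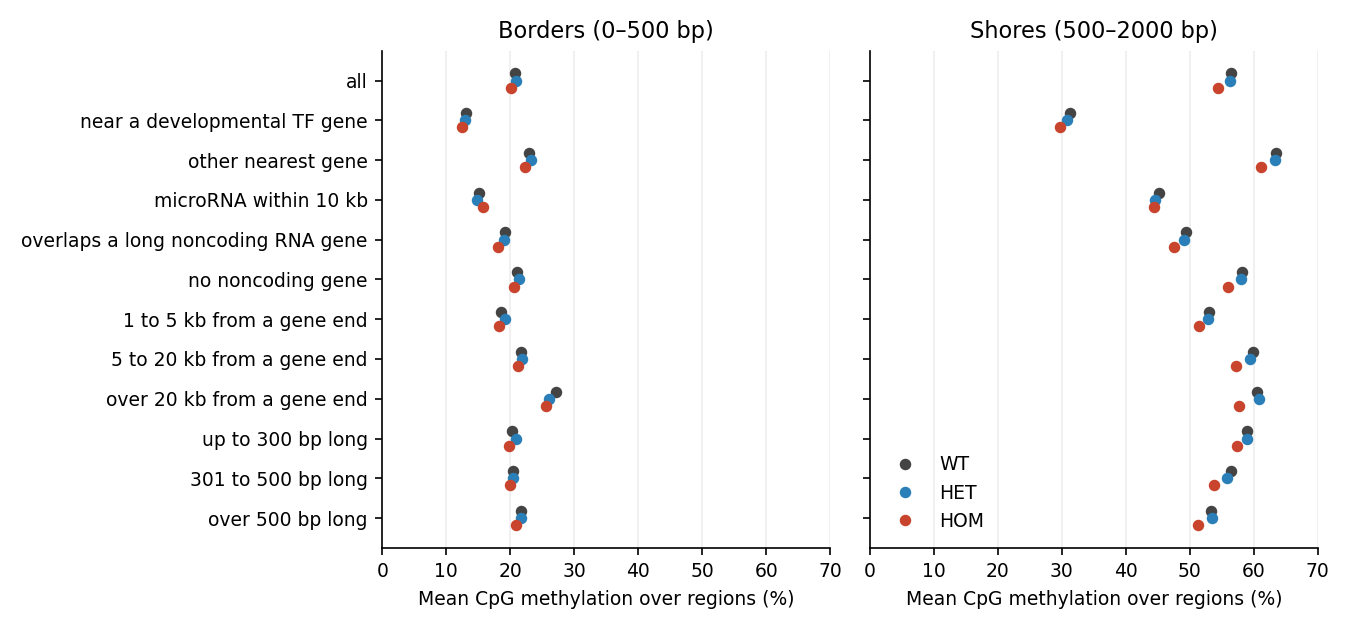
Mean CpG methylation (%) over borders (left) and shores (right) for subgroups of the members, with a point for each library. Members near developmental transcription factor (TF) genes lie lowest, with WT shores at 31.4%, and in the shore panel the HOM point is the lowest in each subgroup.

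The title of the series concerns island borders and H3K4 methylation, and the first comparison sets HOM against WT. Borders of the members were slightly less methylated in the HOM library and shores more clearly so. The mean border difference was -0.528 points (interval -0.823 to -0.234), with an SD over borders of 7.22 points. The level was lower in HOM at 624 borders, higher at 515 and equal at 22, and the mean was lower on 13 of 19 autosomes. The mean shore difference was -2.12 points (-2.39 to -1.85), with 717 shores lower and 404 higher, and lower on all 19 autosomes. When levels were scaled to the same open sea in every library, both turned, to 0.351 points (0.0554 to 0.647) for borders and 0.267 points (-0.000702 to 0.534) for shores, so relative to the open sea neither was lower in HOM. Gene-end islands differed more, by -1.45 points at borders and -3.51 at shores, and so did islands inside genes, by -1.19 and -3.04. The border difference of members was 0.918 points above that of gene ends (0.617 to 1.22) and 0.661 above that inside genes (0.329 to 0.994), but over a border of 200 bp it was -0.231 points (-0.594 to 0.132) relative to gene ends. Members over 20000 bp from a gene end had the largest border difference of the distance classes, -1.62 points (-2.59 to -0.649).

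Between HET and WT the intervals of both mean differences included 0. Borders differed by 0.252 points (-0.0289 to 0.533), with 573 higher in HET and 562 lower, and shores by -0.165 points (-0.411 to 0.0812), with 540 higher and 580 lower. The shore mean joined levels at which HET stood above WT and levels at which it stood below, as described further on. Scaled to equal open sea, HET stood above WT by 0.417 points (0.140 to 0.695) at borders and 0.294 points (0.0510 to 0.537) at shores. Neither counting interval included 0. Both take CpG reads as independent, and before scaling the SD over regions was 6.47 points at borders and 5.85 at shores. HOM against HET repeated the direction of HOM against WT, with which it shares the HOM library, at -0.781 points (-1.05 to -0.508) for borders and -1.95 points (-2.20 to -1.71) for shores. Among subgroups, HET borders were 0.574 points above WT (0.206 to 0.942) within 5000 bp of a gene end and differed by -1.13 points (-2.05 to -0.208) farther than 20000 bp.

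The difference between HOM and WT depended on the level of a region, and the gap between members and gene ends was widest at middle levels. Each region was placed in a class by its mean over the libraries. Member borders at 20 to 40% (226) had means of 28.8% in WT and 28.4% in HOM, which differed by -0.322 points (-1.19 to 0.544), while gene-end borders of that class (3624) differed by -2.52 points (-2.73 to -2.31). Member borders at 40 to 60% (129) differed by -0.217 points (-1.52 to 1.08), and those of gene ends by -3.46 (-3.81 to -3.11). Members minus gene ends gave 2.19 points (1.30 to 3.08) and 3.24 points (1.90 to 4.59). Shores showed the same gap, with -0.739 points (-1.60 to 0.125) for 155 member shores at 40 to 60% and -3.99 (-4.19 to -3.80) at gene ends, 3.26 points apart (2.37 to 4.14). The gap was smaller but above 0 in borders of 5 to 10%, at 0.644 points (0.157 to 1.13), and of 10 to 20%, at 1.05 points (0.404 to 1.70). Shores of 10 to 20% and 20 to 40% gave 1.67 points (0.943 to 2.39) and 1.84 points (1.03 to 2.65). Relative to islands inside genes, member borders at 20 to 40% and 40 to 60% gave 1.14 points (0.147 to 2.12) and 2.32 points (0.847 to 3.79). Shores at 40 to 60% gave 2.50 points (1.53 to 3.48). There the interval included 0 for borders at 10 to 20%, at 0.279 points (-0.450 to 1.01), and shores at 20 to 40%, at 0.730 points (-0.191 to 1.65), among others. In shores of 60 to 80% the differences were -3.64 points for members and -4.32 for gene ends, a gap of 0.684 (0.0637 to 1.30), and in those of 80 to 100% they were -3.81 and -3.53. At 40 to 60% a gap was also seen in HET minus WT, which shares the WT library. Member borders there differed by 1.55 points (0.319 to 2.79), and members minus gene ends gave 1.89 (0.611 to 3.17). Shores gave 1.27 (0.454 to 2.09) and 1.64, with an interval above 0. At 20 to 40% the intervals of the HET gaps included 0. Member shores of 60 to 80% and 80 to 100% differed between HET and WT by -0.593 and -0.806 points. With HOM and WT scaled to equal open sea, member borders at 20 to 40% and 40 to 60% were 0.914 and 1.88 points higher in HOM. Those of gene ends differed by -1.30 and -1.39 points, and the gaps were 2.21 and 3.27.

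**Figure D4:**
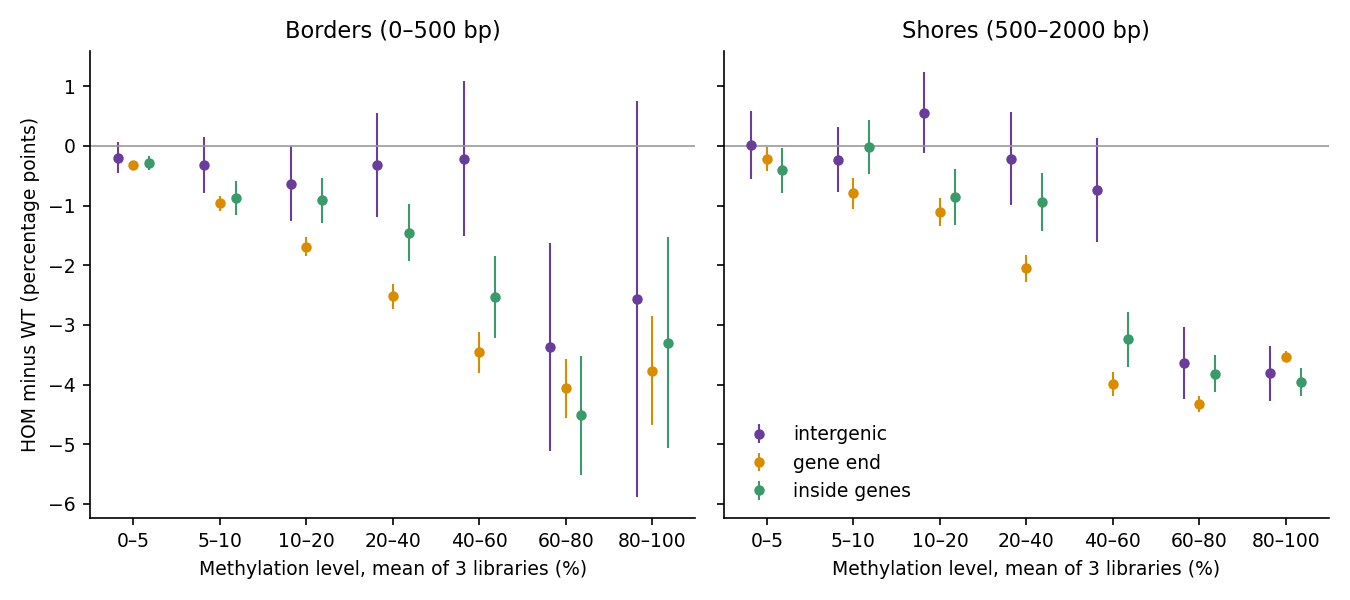
Difference HOM minus WT (percentage points) by class of level for borders (left) and shores (right), with 95% counting intervals as bars. At 20 to 60% the members lie near 0 and the gene ends at -2.05 to -3.99 points, while above 60% the members lie at -2.56 to -3.81 points.

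Splitting the members by their nearest gene, a split made after this pattern had been seen, put the small differences of this range with members away from developmental transcription factors. Their 319 borders at 20 to 60% averaged 36.0%, 37.0% and 36.2% (WT, HET, HOM), with HOM minus WT at 0.228 points (-0.538 to 0.993). The 36 borders near such factors averaged 36.0%, 34.7% and 31.2%, with HOM minus WT at -4.81 points (-7.10 to -2.53). Shores of the same range differed by 0.0313 points (-0.648 to 0.711, 212 shores) and -2.07 points (-3.26 to -0.875, 72 shores). Scaled to equal open sea the border values were 1.79 and -3.38 points and the shore values 1.87 and -0.562.

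Individual borders were compared by Fisher's exact test on CpG reads (two-sided, Benjamini-Hochberg adjusted over the borders of all unmethylated islands) and called at an adjusted p under 0.05 with a difference of at least 10 points. Between HOM and WT, 9 of 1161 member borders (0.775%) were called higher in HOM, where 0.334% of all borders were, and 4 (0.345%) lower, where 1.02% were. The CpGs of a read are not independent. When each count was divided by the number of CpGs within reach of a read, none was called, and 4 higher and 4 lower member borders had an unadjusted p under 0.05 (0.345% each, where 0.167% and 0.524% of all borders did), so each border below is a description of these libraries.

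The border called with the greatest rise in HOM lay at chr4:133910070-133910569, nearest Rps6ka1, a kinase gene of the MAPK pathway. Its level was 24.0% (WT), 30.2% (HET) and 62.6% (HOM), from 121, 149 and 91 CpG reads (difference 38.7 points, 25.5 to 50.1, adjusted p from Fisher's exact test 2.85e-05). The HOM interval lay above those of WT and HET, the island was at 0.209%, 0.120% and 0.111%, and its opposite border stood at 71.4%, 75% and 71.4%. The border near Hrob, a homologous recombination gene (chr11:102245440-102245939), stood at 31.0%, 55.3% and 69.3%, with HET nearer to HOM, and that opposite at 17.2%, 18.0% and 14.8%. The border 67086 bp from Smad2, a transducer of TGF-beta signals, stood at 19.5%, 21.1% and 51.7%, with HET at the level of WT. Those nearest Morn3 (chr5:123057353-123057852) and Spsb2, a SOCS box gene (chr6:124805837-124806336), stood at 27.4%, 36.4% and 58.4% and at 15.3%, 31.4% and 40.4%.

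The 4 borders called lower in HOM had a median of 49.3% in WT and 25.9% in HOM. The border near Map1lc3b, a gene of autophagosome formation (chr8:121585702-121586201), stood at 52.8%, 41.4% and 29.0% over 144, 362 and 372 CpG reads (difference -23.7 points, -32.8 to -14.3). Those near Eif3f, a translation initiation factor (chr7:108951336-108951835), and Tent5b, a poly(A) polymerase family gene (chr4:133467685-133468184), stood at 45.8%, 33.1% and 22.8% and at 34.0%, 26.9% and 15.5%. The border near 9530057J20Rik (chr8:19979455-19979954) held 4 CpGs at 90.9%, 70.9% and 69.2%, beside an island of 14.0%, 10.5% and 7.25%. CpGs at which a library stood 70 points or more from both others, as a difference in sequence could give, were counted per megabase. The Rps6ka1 and Tent5b borders share a megabase of chromosome 4, which held 13 of them. The median was 1 and the 95th percentile 6 over 2413 megabases. The megabases of the Junb border and the Pax2 shore, both named below, held 7 each. The part of such CpGs in these regions was not tested.

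Between HET and WT, 5 member borders were called higher (0.431%, background 0.369%) and 4 lower (0.345%, background 0.411%), a share near the background in both directions. Scaled to equal open sea there were 5 and 2, and the share of all borders was not counted under that scaling. The border near Hrob was called here as well, and other large differences lay near Kdm7a, a histone demethylase gene (chr6:39256229-39256728; 32.0%, 56.6% and 43.2%), and Zfp644 (chr5:106561520-106562019; 37.1%, 61.3% and 37.2%). The border near Enkur (chr2:21141368-21141867) had the most reads, with 15.7%, 32.4% and 17.7% over 300, 358 and 361, where WT and HOM overlapped and HET stood above both. Lower in HET were borders near H2-T3, a nonclassical MHC class I gene (chr17:36206226-36206725; 54.4%, 24.3% and 30.3%), the high end of the Dleu2 island (chr14:61649388-61649887; 62.4%, 36.3% and 38.7%), and Junb, a subunit of AP-1 (chr8:84980491-84980990; 32.4%, 15.2% and 31.3%).

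Between HOM and HET, 4 borders were called higher (0.345%, background 0.26%) and 12 lower (1.03%, background 1.07%). Scaled to equal open sea there were 6 and 4, again without a count over all borders. The border 2457 bp from Id2, an inhibitor of E proteins (chr12:25098049-25098548), was nearly unmethylated in WT and HET at 1.61% and 2.56% and stood at 19.7% in HOM, over 62, 117 and 66 CpG reads. The one near Armc12 (chr17:28517580-28518079) stood at 20.4%, 21.1% and 36.4% and was called against WT as well. Near Tnks2, a tankyrase gene, the levels were 51.2%, 36.9% and 66.2%, with WT between. Lower in HOM were borders near Spred2, an inhibitor of MAPK signalling (chr11:19920595-19921094; 38.8%, 53.3% and 20%), and Tmem174 (chr13:98573443-98573942; 48.2%, 59.2% and 27.7%), and in both HET stood highest. Near Gtdc1 the values were 66.7%, 82.9% and 52.7%.

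**Figure D5:**
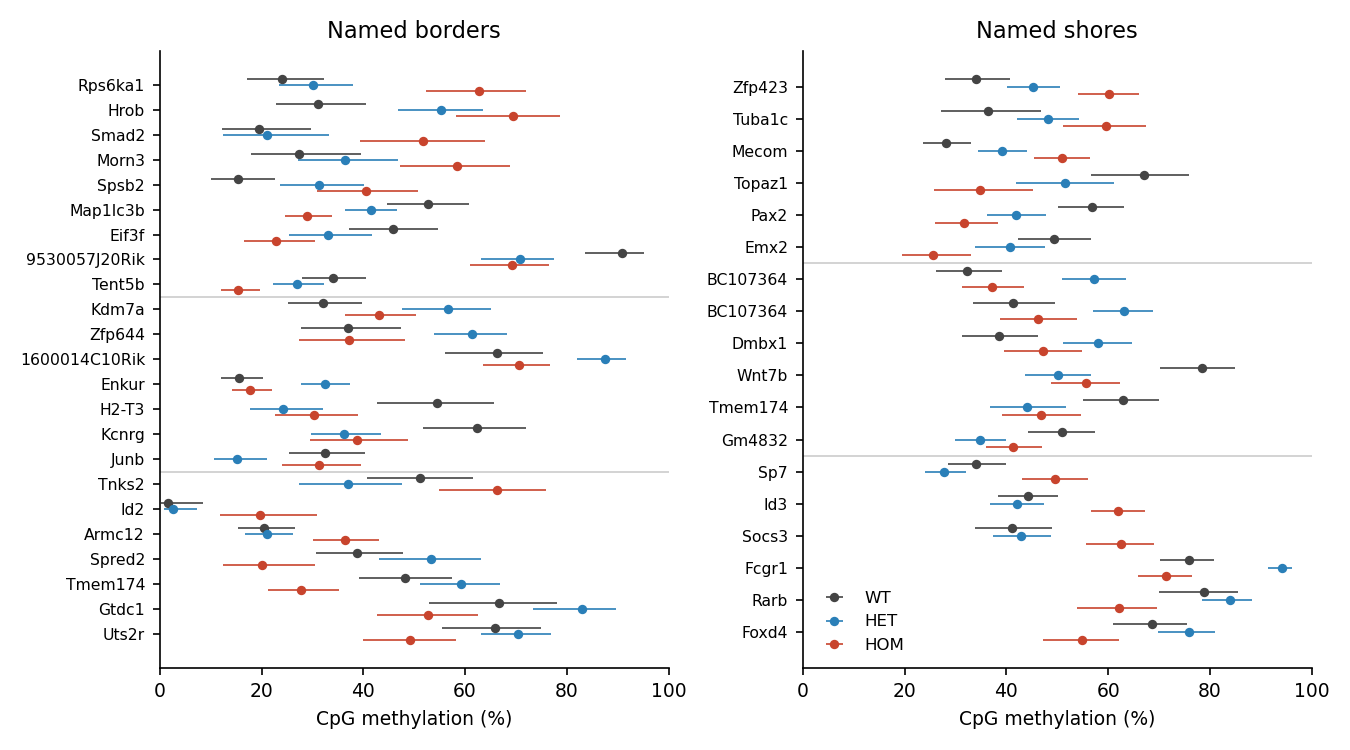
CpG methylation (%) of the named borders (left) and shores (right) in each library, with 95% Wilson intervals. Grey lines part the regions named first for HOM against WT (top), HET against WT (middle) and HOM against HET (bottom). The HOM interval of the Rps6ka1 border lies above those of WT and HET.

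Shores were called more often than borders. They also held more CpGs and reads, with medians of 18 CpGs and 197, 281.5 and 215.5 CpG reads (WT, HET, HOM). Between HOM and WT, 22 of 1122 member shores were called higher in HOM, where 1.19% of all shores were, and 46 (4.1%) lower, where 6.85% were. After the same division for CpGs sharing a read, none of them was called, and 8 higher (0.713%) and 31 lower (2.76%) had an unadjusted p under 0.05, where 0.521% and 4.12% of all shores did. The 22 higher had medians of 36.5% in WT and 59.4% in HOM, and 17 of them were at 50% or less in WT. The 46 lower had medians of 81.7% and 67.9%, and 34 were above 70% in WT. All member shores had a WT median of 66.5%. The calls used these same WT counts, which favours low WT levels among shores called higher and high ones among those called lower. The contrast in WT level is therefore a description of the calls. Scaled to equal open sea, 31 were called higher and 16 lower. The share of all shores called under that scaling was not counted, so this turn cannot be read as particular to the members.

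The greatest rise in HOM was in the shore near Zfp423, whose product binds the B cell factor EBF1 (chr8:87661173-87662672), at 34.0%, 45.3% and 60.2% over 209, 351 and 251 CpG reads (difference 26.2 points, 17.1 to 34.6). That near Mecom, a zinc finger factor of blood stem cells (chr3:30512155-30513654), stood at 28.1%, 39.1% and 50.9% over 345, 396 and 322. The Wilson intervals of WT and HOM did not overlap at either. The shore near Tuba1c, a tubulin gene (chr15:98993914-98995413), stood at 36.4%, 48.2% and 59.6%. It lies 158686 bp from the Ile5482Asn change, so the genotype and the DNA linked to it cannot be told apart there. The shores that fell most lay near Topaz1 (chr9:122566823-122568322) at 67.0%, 51.5% and 34.8%, Pax2, a paired box factor (chr19:44722029-44723528), at 56.8%, 41.9% and 31.8%, and Emx2, a homeobox factor (chr19:59449481-59450980), at 49.4%, 40.6% and 25.6%. The opposite shore at Emx2 stood at 18.5%, 18.1% and 19.7%.

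Between HET and WT, 17 shores were called higher (1.52%, background 1.21%) and 15 lower (1.34%, background 1.54%). Both shores of the island near BC107364 were higher in HET, at 32.3%, 57.3% and 37.2% (chr3:96475768-96477267) and at 41.3%, 63.1% and 46.3% (chr3:96472859-96474358), with HOM near WT. The shore near Wnt7b, a secreted signal (chr15:85646809-85648308), was lower in both mutant libraries, at 78.4%, 50.2% and 55.7%. It lies 13186920 bp from the Ile5482Asn change, and linked DNA was not tested there. Between HOM and HET, 16 were higher (1.43%, background 0.897%) and 51 lower (4.55%, background 6.05%). Scaled to equal open sea there were 26 and 20, again without a count over all shores. Near Id3, Socs3, an inhibitor of cytokine signals, and Sp7, a factor of bone, HOM stood above both others, at 44.2%, 42.0% and 62.0% (chr4:136133054-136134553), 41.1%, 43.0% and 62.6% (chr11:117964271-117965770) and 34.0%, 27.8% and 49.6% (chr15:102377584-102379083). The Sp7 shore lies 3542356 bp from the Ile5482Asn change, and linked DNA was not tested there. The megabase of the Id3 shore held 63 CpGs of the kind a sequence difference could give, and their part was not tested. The shore near Fcgr1, an Fc receptor gene (chr3:96275935-96277434), had levels of 75.8%, 94.2% and 71.4%, from 248, 364 and 276 CpG reads. Its adjusted p (Fisher's exact test, Benjamini-Hochberg) after division for CpGs sharing a read, 0.0708, was the lowest of the named regions.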

How the data were processed

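Whole-genome bisulfite sequencing was applied to mouse splenic B cells. The deposited table gives, per CpG, the count of methylated reads and the count of covering reads, raw and not normalized, per the file headers and the values. Paired reads of 150 bp came from 200 ng of DNA sheared to 800 bp, per the labels' protocols. The builds include mm10, and the tools named are BWA 0.7.13, MethylDackel and Picard 2.3.0 as well as Bismark, Bowtie2, Picard 1.91 and Trim Galore 0.2.8, per the submitters' processing notes. The sources used here do not say which of them made the table or how it was filtered. The blood samples were not analysed here.

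A level is the methylated share of all CpG reads in a region. CpGs outside islands belong to the nearest island edge, and each side of an island is a region of its own. Gene ends were taken from RefSeq's GRCm38.p6 genes, without strand. All 19678 CpGs in the RefSeq starts checked lay at the same position in the table. A count model needs replicates, and each genotype had 1 set of counts, so the fallback of the design was used, the difference in points with its 95% counting interval (Wilson for a level, Newcombe for a difference, normal for a mean over regions) beside Fisher's exact test per region with Benjamini-Hochberg adjustment. Intervals and limits cover counting error alone, with CpG reads taken as independent. No molecular identifiers are named in the labels, and a level of 0 allows 3 counts. Analyses used Python 3.11.15, numpy 2.4.6, pandas 2.3.3, scipy 1.17.1, numba 0.67.0 and matplotlib 3.10.9. The island search, Fisher's exact test and the normal interval of a mean difference were tested on simulated data. The simulated CpG reads were independent, so the effect of CpGs sharing a read could not be seen there.

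Regions carry the name of the nearest protein-coding gene, whose link to the region is distance alone. Named are the 5 borders and 3 shores with the greatest difference in each direction of each comparison, among called regions with 60 or more CpG reads in both libraries. Named islands are the 10 longest, 5 densest, 5 farthest from a gene end and 3 on each side of the 20% limit. Up to 4 of each gene list are added, and the text gives a choice of all these. The islands near Ccnd2, Kmt2e, Mir9-2 and Mir196b, those of high coverage and those with a RefSeq start were picked after their values were seen. The members and lists were chosen with earlier results of these data known. Alternatives changed the read minimum, the level limit, the gene distance, the island length, the border width, the averaging, the scaling to the open sea, the size of a called difference and the independence of CpGs in a read. Leaving out islands of high coverage or those near developmental transcription factors was added after seeing the data.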

Additional observations from a re-analysis of the deposited data

How the results depend on the processing

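Of 153 values recomputed, 97 stayed within the first value's counting interval (for a count of calls, within 1.5 times), 53 moved further, and 3 differences whose interval had excluded 0 changed sign. HET minus WT, whose interval included 0, also changed sign under several settings, among them at shores 0.0706 from the mean of CpG levels and 0.000551 with at least 100 CpG reads. No paired analysis was possible because each genotype has 1 set of counts, and leaving out replicates was not possible for the same reason. Scaled to equal open sea, the difference HOM minus WT became 0.351 points at borders and 0.267 at shores, HOM minus HET -0.0663 and -0.0273, and HET minus WT 0.294 at shores, with an interval above 0. Under that scaling 2 borders were called lower in HET than in WT and 4 lower in HOM than in HET, 16 shores were lower in HOM than in WT, and against HET 26 were higher and 20 lower. With borders of 200 bp, the border difference of members was -0.231 points relative to gene ends and 0.0169 relative to islands inside genes, and HET minus WT was -0.183. With at least 100 CpG reads, the difference relative to gene ends was 0.526 and HOM minus WT at shores -1.72, and 3 borders were called higher in HOM than in WT, 2 higher and 2 lower in HET than in WT, and 2 higher and 7 lower in HOM than in HET. Over 5000 bp from every gene end, HET minus WT was -0.107 at borders, and at shores HOM minus WT was -2.64 and HOM minus HET -2.47. There the borders called were 5 higher and 2 lower (HOM, WT), 1 and 2 (HET, WT) and 2 and 4 (HOM, HET), while for shores they were 10 and 29 (HOM, WT), with 7 higher in HET than in WT and 7 higher in HOM than in HET. In islands over 500 bp, HET minus WT at shores was 0.242 and HOM minus HET -2.27. At 20 points or more, 5 borders were higher in HOM than in WT and against HET 2 were higher and 5 lower, and the shores called were 4 higher and 6 lower (HOM, WT), 2 and 1 (HET, WT) and 2 and 8 (HOM, HET). After division of the counts for CpGs sharing a read, 0 borders and 0 shores of members were called in every comparison. Fewer regions or reads were tested under the read, distance and per-read settings, and the cause of the other changes was not tested. With at least 100 CpG reads, 650 member borders were tested. Over 5000 bp from every gene end it was 548 borders and 556 shores, against 1161 and 1122 at first. Outside the per-read setting the share of all islands called was not counted, so a changed count need not be a changed share. A border rests on a median of 119 CpG reads in WT, so differences of a few points in 1 border were not detectable at this depth.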
